A study of Mus musculus with 24 samples.

Results

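The genes described here are 41 cell-cycle genes, chosen by symbol as known cell-cycle genes and not by a measured value, out of 55177 genes to which the transcripts in the deposited tables could be assigned. Earlier results of these data were known when the list was chosen. The list was divided by role into 12 genes of G1/S and DNA synthesis, called S-phase genes below, and 29 genes of G2 and mitosis, called mitotic genes. They were measured by RNA-seq in 24 libraries from primary mouse neurons, cultured from cortex of embryonic day 16.5, in 10 groups of 2 or 3 libraries each. Activity was blocked overnight before harvest by the sodium channel blocker tetrodotoxin (1 µM) and the NMDA receptor antagonist D-AP5 (100 µM), after which the cells were either left at rest or depolarized with 50 mM KCl for 30 min. At day in vitro 7 (DIV7) the cells were wild type, both states carried 0.1% DMSO, and 2 libraries per state were made from poly(A) RNA. At DIV18 the libraries were made from total RNA depleted of rRNA, and the cells carried either a non-targeting guide RNA (NT, 2 libraries at rest and 2 with KCl) or a guide RNA for knockout of Smarcc2, a subunit of the BAF (SWI/SNF) chromatin remodelling complex. The knockout (KO) cells carried an empty vector (3 at rest, 3 with KCl), wild-type Smarcc2 (WT, 2 at rest, 3 with KCl), the point mutant Smarcc2 S586E (3, at rest only) or S586A (2, with KCl only). The labels treat each embryo's cortex as a biological replicate, and do not name the promoter or the cell type in which the guide RNAs acted.

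A cell that divides copies its DNA in S phase and separates the copies in mitosis, and most genes of both steps are transcribed in waves in cycling cells and silenced when a cell leaves the cycle. At the G1/S boundary E2F factors drive genes for the MCM helicase, the sliding clamp PCNA and the enzymes that make deoxynucleotides. Before mitosis the MuvB complex with B-Myb and FOXM1 drives mitotic cyclins, kinases, kinesins and kinetochore proteins, many through CHR and CCAAT elements of their promoters. Neurons are postmitotic, so in a cortical culture transcripts of mitotic genes are known mainly from glial cells, glial precursors and remaining progenitors. Several S-phase proteins also serve DNA repair or have other roles in cells that do not divide.

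The promoters of the 2 classes were searched for short runs of letters, and the shares found were not tested against each other. The 250 bases before the annotated start are printed below for 3 mitotic genes and 2 S-phase genes on which the results turn, from RefSeq (GRCm38.p6), 5′ to 3′ on the strand of the gene. Capitals mark CCAAT (or its reverse complement ATTGG), the CHR letters TTTGAA (or TTCAAA) and 4 E2F forms, TTTCCCGC, TTTCGCGC, TTTGCCGC and TTTGGCGC, searched on both strands. Mki67 encodes the proliferation antigen Ki-67 (chr7:135716380-135716629, minus strand), Top2a encodes DNA topoisomerase II alpha (chr11:99024190-99024439, minus strand) and Cdk1 encodes the mitotic cyclin-dependent kinase (chr10:69352913-69353162, minus strand). Mcm5 encodes a subunit of the replicative helicase (chr8:75109259-75109508, plus strand) and Ccne1 encodes cyclin E1 (chr7:38107491-38107740, minus strand).
Mki67: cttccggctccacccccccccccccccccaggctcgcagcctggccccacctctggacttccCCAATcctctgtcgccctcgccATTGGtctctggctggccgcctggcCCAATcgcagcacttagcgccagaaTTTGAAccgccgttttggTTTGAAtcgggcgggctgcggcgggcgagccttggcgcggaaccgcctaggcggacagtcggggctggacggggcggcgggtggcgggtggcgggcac
Top2a: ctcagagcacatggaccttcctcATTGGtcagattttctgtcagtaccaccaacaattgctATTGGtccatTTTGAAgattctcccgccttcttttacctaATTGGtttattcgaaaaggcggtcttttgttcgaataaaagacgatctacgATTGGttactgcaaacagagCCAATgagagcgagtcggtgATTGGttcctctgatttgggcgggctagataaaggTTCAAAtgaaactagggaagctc
Cdk1: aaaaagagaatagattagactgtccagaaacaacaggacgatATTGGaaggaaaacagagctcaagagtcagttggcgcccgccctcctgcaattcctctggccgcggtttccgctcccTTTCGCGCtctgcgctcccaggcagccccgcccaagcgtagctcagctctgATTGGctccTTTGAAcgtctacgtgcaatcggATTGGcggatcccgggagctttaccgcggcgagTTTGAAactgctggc
Mcm5: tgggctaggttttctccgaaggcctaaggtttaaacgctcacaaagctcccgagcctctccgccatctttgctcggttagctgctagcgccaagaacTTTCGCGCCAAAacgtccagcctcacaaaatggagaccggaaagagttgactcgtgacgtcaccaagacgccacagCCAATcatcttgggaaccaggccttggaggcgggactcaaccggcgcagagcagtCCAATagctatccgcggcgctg
Ccne1: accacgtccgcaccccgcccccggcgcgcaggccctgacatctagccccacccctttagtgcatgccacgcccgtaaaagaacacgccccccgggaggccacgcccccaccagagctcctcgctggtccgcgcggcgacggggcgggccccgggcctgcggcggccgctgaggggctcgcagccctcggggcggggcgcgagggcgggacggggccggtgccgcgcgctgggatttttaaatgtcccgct
All 3 mitotic promoters held both CCAAT and the CHR letters, and the Cdk1 window also held an E2F form. The Mcm5 window held CCAAT and 2 overlapping E2F forms, one on each strand, and the Ccne1 window held none of the letters searched. A promoter entry was found for 35 of the 41 genes, in 37 windows. CCAAT was in 22 of 25 mitotic windows (88%) and 9 of 12 S-phase windows (75%), against 33.8% of all 32851 windows. The CHR letters were in 9 mitotic windows (36%) and 1 S-phase window (8.33%), against 15.99% of all windows. The E2F forms were in 1 mitotic window (4%), that of Cdk1, and 3 S-phase windows (25%), against 1.86% of all windows. The 12 S-phase windows belong to 11 genes and the 25 mitotic windows to 24. A match is a run of letters in this window and not a measured binding site.

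Total estimated counts were 24536056 to 30135576 per library at DIV7 and 14510199 to 24024959 at DIV18. Levels below are CPM, the counts scaled to a common library size after TMM normalization. The TMM factors were computed apart for the DIV7 and the DIV18 libraries, so CPM share a scale within a day only. All 41 genes passed the filter on low counts in every fit. Cdk1, Bub1 and Bub1b would not pass it on the 16 KO libraries alone. Smarcc2 itself reached 265 and 237 CPM in resting NT at DIV18 and 47.1, 49.8 and 64.1 CPM in resting KO with vector. In the resting wild-type libraries at DIV7 Smarcc2 was at 397 and 407 CPM. It was between 737 and 1340 CPM in the libraries with WT, S586E or S586A. Neuronal markers summed to 3916 to 6094 CPM in all libraries. Astrocyte markers were also present, at 534 to 646 CPM summed at DIV7 and 839 to 1992 CPM at DIV18, so the cultures held RNA of other cell types. The method reads bulk RNA, in which fewer dividing cells and less RNA per dividing cell cannot be told apart.

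Per unit of transcript length (the authors' TPM, summed over a gene's transcripts), S-phase genes were the higher class. In resting NT neurons Pcna was highest at 15.2 ± 2.96 TPM (SD, n = 2), followed by Ccne1 at 11.7 ± 3.81, Mcm7 at 5.96 ± 0.41 and Racgap1 at 5.86 ± 1.73. The libraries of Pcna and Ccne1 overlapped, as did those of Mcm7 and Racgap1, whereas Ccne1 lay above Mcm7 in both. Racgap1, which encodes a component of the centralspindlin complex of cytokinesis, was the only mitotic gene at ranks 1 to 9. Mki67 was at rank 24 with 1.03 ± 0.52 TPM and the checkpoint kinase gene Bub1 was lowest with 0.22 ± 0.087 TPM. At DIV7 Pcna led again with 52.5 ± 2.28 TPM (n = 2), Mcm7 was second with 41.9 ± 3.41 and Bub1 was again last with 0.44 ± 0.009. In resting KO neurons with vector, Mki67 stood at rank 39 with 0.074 ± 0.049 TPM (n = 3), above only Bub1b and Bub1.

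Summed over the 12 S-phase genes, the level was 113 and 148 CPM in the 2 resting NT libraries and 99.9 to 106 CPM in the 3 resting KO libraries with vector. Summed over the 29 mitotic genes, it was 68.6 and 107 CPM in resting NT and 39.5, 41.7 and 48.1 CPM in KO with vector. The S-phase sum over the mitotic sum was 1.40 to 1.57 in the DIV7 libraries, 1.39 and 1.65 in resting NT, and 2.19 to 2.62 in all 16 KO libraries. The depolarized NT libraries were split: their mitotic sums were 42.9 CPM in replicate 1 and 73.2 CPM in replicate 2, with ratios of 2.58 and 1.46. Replicate 1 was therefore within the range of the KO libraries and replicate 2 outside it. On the TPM scale the separation was less complete: mitotic sums were 25.7 and 39.6 TPM in resting NT, 14.4 to 23.3 TPM in the 8 resting KO libraries and 17.9 to 26.7 TPM in the depolarized KO libraries.

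**Figure D1:**
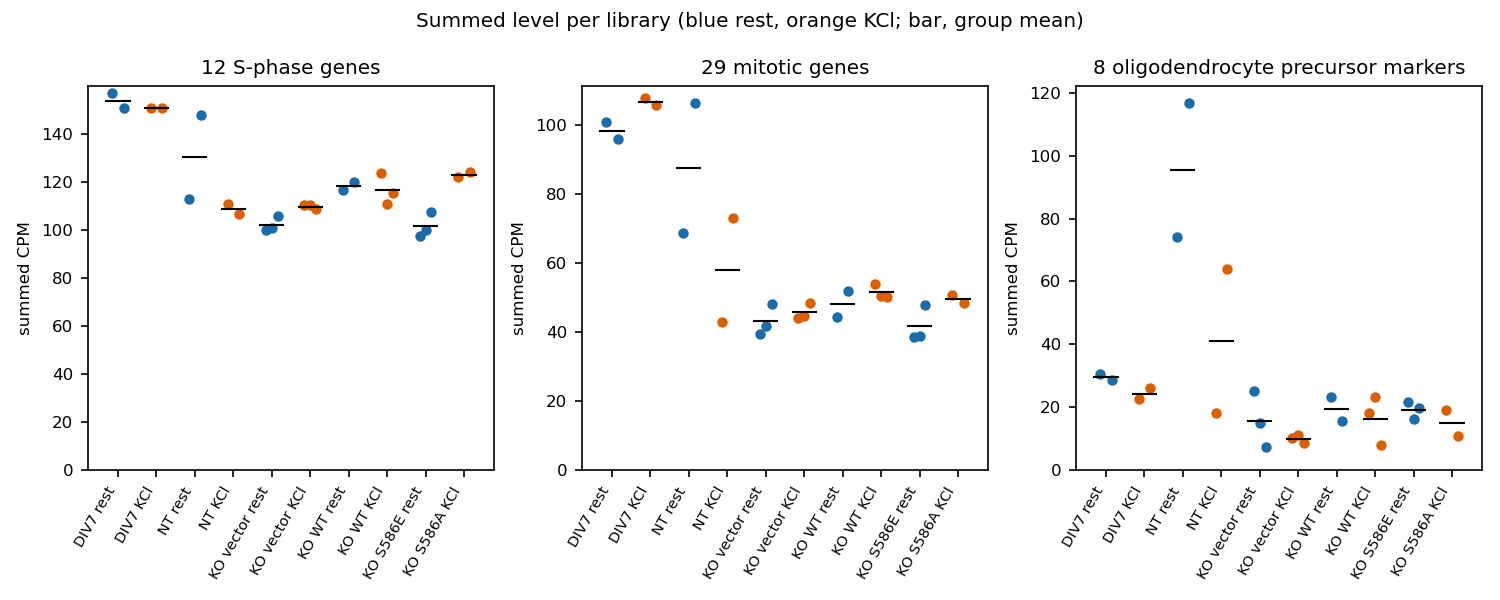
Summed CPM of the 12 S-phase genes, the 29 mitotic genes and 8 oligodendrocyte precursor markers in each library (points) with group means (bars), by group. The mitotic sums of the 16 KO libraries lie at 38.5 to 53.9 CPM, below both resting NT libraries at 68.6 and 107 CPM; in TPM, 2 depolarized KO libraries (26.7 and 26.5) lie above resting NT replicate 1 (25.7).

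Loss of Smarcc2 was compared with the non-targeting guide at rest, KO with vector against NT. In this comparison 12 of the 41 genes fell and none rose (edgeR quasi-likelihood test, Benjamini-Hochberg adjusted p under 0.05 over all genes tested), 6 S-phase and 6 mitotic, where 5.90% of all 20940 genes tested were called (3.77% lower, 2.13% higher). Cdk1 and Bub1b, 2 of the 12, entered the test only through the NT libraries, where they were high, and their calls are therefore not read as support. With the low-count filter set on the KO libraries alone, 10 of the 38 genes that passed fell, and the mitotic median was -0.95. All 29 mitotic genes had log2 fold changes below 0, from -3.73 to -0.05 with a median of -1.12. The S-phase genes ranged from -2.12 to 0.39 with a median of -0.56, and the median over all genes tested was 0.02. In 24 of the 41 genes, 7 S-phase and 17 mitotic, all 3 KO libraries with vector were below both NT libraries, against 18.2% of all genes, and in 2 S-phase genes, Mcm7 and Tyms, all 3 were above, against 16.1%. The 24 include Cdk1, Bub1 and Bub1b, which passed the filter only through NT, so for these genes the order is not read as support. Cdk1, Bub1 and Bub1b are also in the mitotic median of -1.12.

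**Figure D2:**
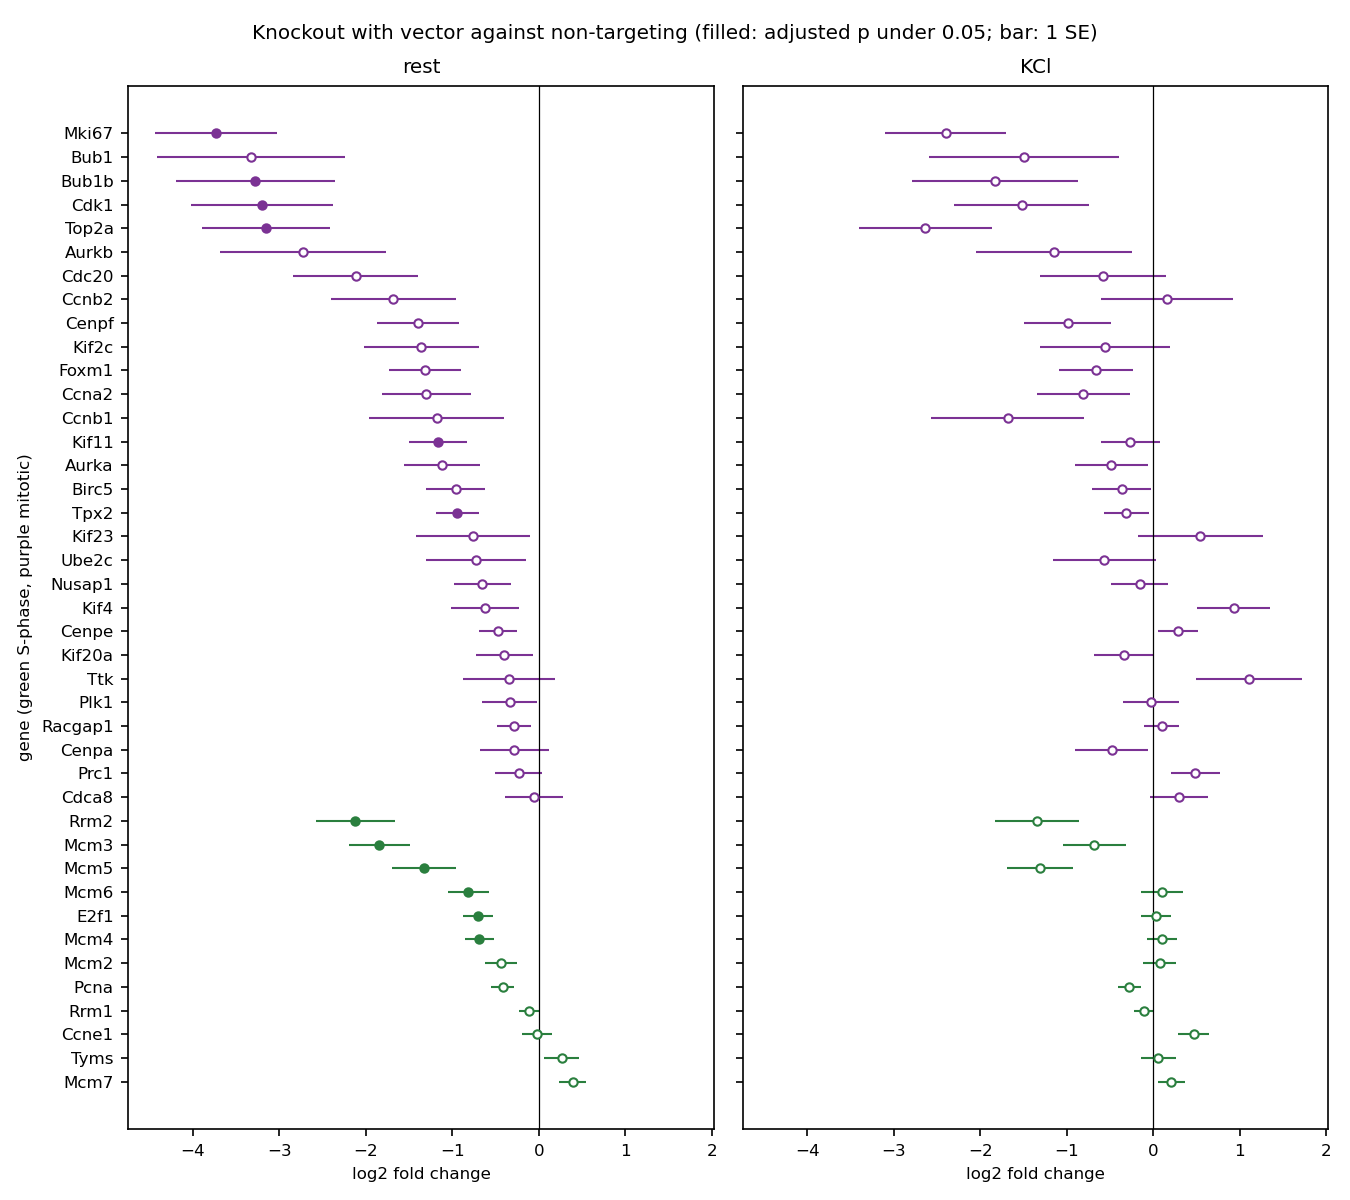
Log2 fold change of each of the 41 genes, with its standard error, in KO with vector against NT at rest and with KCl; filled points have an adjusted p under 0.05. At rest 12 points are filled, all on the lower side, and with KCl none is.

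Among the mitotic genes the largest difference was in Mki67. Resting NT neurons had 7.52 and 16.1 CPM, against 0.86, 0.32 and 1.53 CPM in KO with vector, and no KO library of any kind exceeded 2.42 CPM. The groups did not overlap, and the log2 fold change was -3.73 (SE 0.71, adjusted p = 0.00511, edgeR). Top2a was at 5.52 and 9.50 CPM in NT and at 0.59, 0.74 and 1.21 CPM in KO with vector, again without overlap, with a log2 fold change of -3.15 (SE 0.74, adjusted p = 0.0165, edgeR). Cdk1 was at 0.85 and 1.33 CPM against 0.05, 0.16 and 0.13 CPM, which is 49 against 6 estimated counts in all and a ratio of 0.104 (95% counting interval 0.0365 to 0.244). Bub1b, which encodes a spindle checkpoint kinase, had 35 against 4 estimated counts, a ratio of 0.0973 (0.0251 to 0.272). The ratios of Cdk1 and Bub1b are given as description only, since both genes passed the filter only through NT.

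The other 2 mitotic genes called were spindle genes with smaller changes. Kif11, the kinesin-5 motor that pushes spindle poles apart, was at 3.06 and 3.53 CPM in NT and at 0.86, 1.53 and 2.04 CPM in KO with vector (log2 fold change -1.16, adjusted p = 0.0446, edgeR). Tpx2, which activates Aurora A on spindle microtubules, was at 5.39 and 7.53 CPM against 2.05, 4.17 and 3.88 CPM (log2 fold change -0.94, adjusted p = 0.0329, edgeR). Neither gene's groups overlapped. Of the 23 mitotic genes that were not called, 10 had an unadjusted p under 0.05, all lower in KO. Such a p was reached by 25 of the 41 genes, 24 of them lower, and by 4262 of all 20940 genes (edgeR). Racgap1, the most abundant mitotic gene, was at 10.4 and 15.5 CPM in NT and at 9.21, 9.34 and 13.3 CPM in KO with vector, and these ranges overlapped. The ranges also overlapped for Ccnb1, the cyclin B1 gene, at 0.98 and 2.89 CPM against 0.65, 0.53 and 1.40 CPM, and for Ube2c, the ubiquitin-conjugating enzyme of the anaphase-promoting complex, at 0.47 and 1.42 CPM against 0.75, 0.32 and 0.64 CPM.

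Among the S-phase genes not all members of one complex passed the threshold, and differences between members were not tested. Rrm2, the cell-cycle-regulated subunit of ribonucleotide reductase, was at 2.68 and 5.19 CPM in resting NT and at 0.86, 1.06 and 0.76 CPM in KO with vector, a log2 fold change of -2.12 (SE 0.45, adjusted p = 0.0101, edgeR). Rrm1, the large subunit of the same enzyme, was at 17.4 and 17.8 CPM in NT and at 18.7, 14.98 and 15.03 CPM in KO with vector, with overlapping groups. Of the 6 genes of the MCM2-7 helicase, Mcm3, Mcm4, Mcm5 and Mcm6 fell. Mcm2 was not called, at 6.33 and 9.31 CPM in NT and at 4.95, 5.86 and 6.56 CPM in KO with vector, with overlapping groups. Mcm3 was at 2.51 and 5.51 CPM against 1.18, 1.06 and 1.08 CPM, a log2 fold change of -1.85 (SE 0.35, adjusted p = 0.00533, edgeR). Mcm5 was at 2.17 and 3.30 CPM against 0.70, 1.06 and 1.53 CPM (-1.33, SE 0.37, adjusted p = 0.0406, edgeR).

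Mcm4 and Mcm6 fell by 0.69 and 0.82 on the log2 scale (adjusted p = 0.0217 and 0.0471, edgeR), without overlap between the groups. Mcm7 was one of the 2 genes whose KO libraries all lay above NT, at 12.2, 13.9 and 13.5 CPM against 10.5 and 9.59 CPM, but its log2 fold change of 0.39 missed the threshold (adjusted p = 0.150, edgeR). Mcm7 also overlaps Cops6 and Ap4m1 on the opposite strand, so reads may have been divided between these genes. E2f1, which encodes a transcription factor of the G1/S wave, was at 12.7 and 15.9 CPM in NT and at 10.5, 8.55 and 7.20 CPM in KO with vector, and fell by 0.71 on the log2 scale (SE 0.17, adjusted p = 0.0201, edgeR). Pcna was at 19.96 and 26.5 CPM against 16.05, 18.1 and 18.0 CPM (-0.42, adjusted p = 0.0742, edgeR). Ccne1 was at 17.0 and 23.4 CPM in NT and at 17.0, 19.4 and 23.1 CPM in KO with vector, so the groups covered almost the same range.

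**Figure D3:**
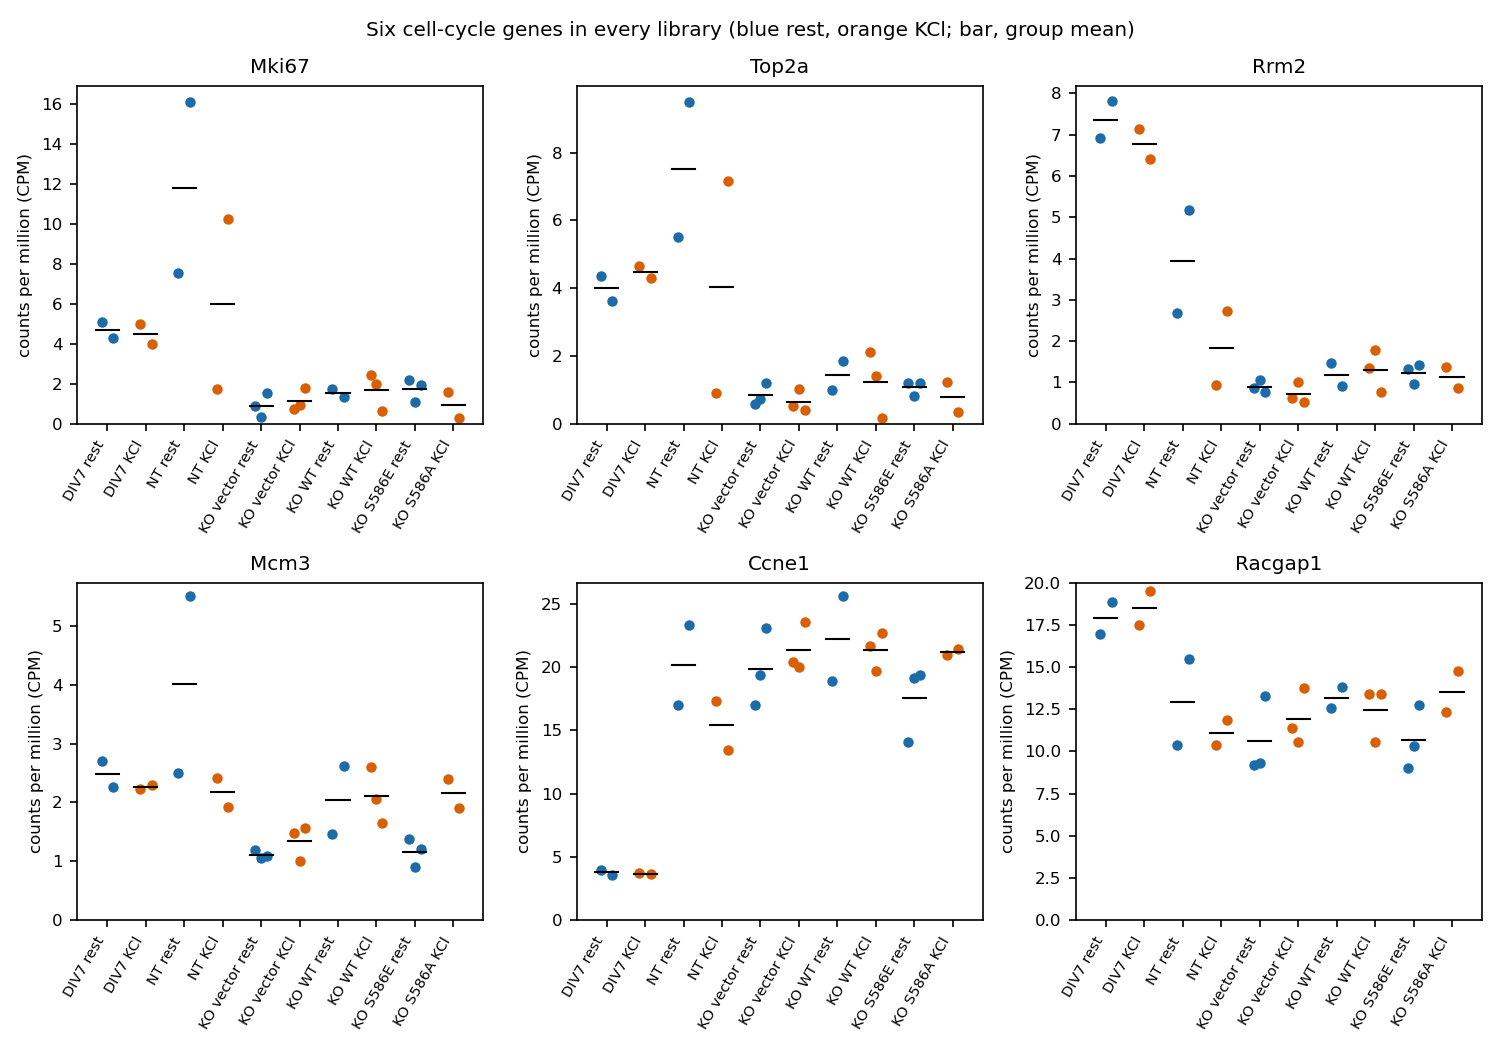
CPM of Mki67, Top2a, Rrm2, Mcm3, Ccne1 and Racgap1 in each of the 24 libraries (points) with group means (bars), for the 10 groups. Mki67 and Top2a are at no more than 2.42 and 2.12 CPM in the KO libraries, whereas Ccne1 is at 3.58 to 3.96 CPM at DIV7 and at 13.4 to 25.6 CPM in the DIV18 libraries. CPM were scaled apart for DIV7 and DIV18.

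These calls rested on the libraries of small groups. Without resting NT replicate 2, which held the higher value for Mki67, Top2a, Rrm2 and Mcm3, none of the 41 genes was called, with medians of -0.26 (S-phase) and -0.78 (mitotic); the NT library left then had no replicate and was assumed to vary like the other groups. Without NT replicate 1, 11 were called, and without replicates 1, 2 and 3 of KO with vector 4, 4 and 8 were called. A fit of these 2 groups alone called 3, and effective-length offsets 7. Of the alternatives run, Mki67 and Rrm2 missed the threshold in the one without NT replicate 2 only (adjusted p = 0.111 and 0.267, edgeR).

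Cell-cycle genes from lists that do not contain the 41 were read in the same comparison, and most did not pass the test. Of 30 other S-phase genes 2 fell and none rose (median -0.38): Uhrf1, which couples DNA methylation to replication, by 1.52 and Ung, a uracil-DNA glycosylase, by 0.79 on the log2 scale. Of 34 other mitotic genes tested 3 fell and none rose (median -0.76): Aspm, a spindle pole protein gene, with a log2 fold change of -2.46 (adjusted p = 0.00951, edgeR), Ckap2l with -2.06 and Ckap2 with -1.86. Of 25 G1 cyclins, kinases and inhibitors 5 fell and none rose (median -0.31): Ccnd3 by 0.70, the inhibitor Cdkn1a by 0.66, Rb1 by 0.65, Fzr1 by 0.42 and Ccnd2 by 0.31. These numbers stand against 3.77% of all genes called lower. Without resting NT replicate 2 none of these 10 genes passed the threshold, and with effective-length offsets Uhrf1 had a log2 fold change of -0.66 (adjusted p = 0.677, edgeR). The D cyclins promote entry into S phase, and Cdkn1a and Rb1 restrain it.

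Markers of oligodendrocyte precursors, cells that go on dividing in cortical cultures, were also lower in KO with vector than in NT, but did not follow the mitotic genes in every library. The sum of 8 such markers was 74.1 and 117 CPM in resting NT and 18.2 and 64.0 CPM in depolarized NT replicates 1 and 2. In resting KO with vector it was 25.1, 15.04 and 7.20 CPM in replicates 1, 2 and 3, whose mitotic sums were 39.5, 41.7 and 48.1 CPM, the opposite order. At DIV7 at rest the precursor sums were 28.6 and 30.7 CPM, and the mitotic sums were 95.9 and 101 CPM. Of the 7 markers tested 5 fell in KO with vector at rest. Which of these would pass the low-count filter on the KO libraries alone is not given here, so this count is description only. Pdgfra, the PDGF receptor alpha gene, was at 19.7 and 30.3 CPM in NT and at 0.92, 1.00 and 0.06 CPM in KO with vector (log2 fold change -5.18), and Sox10 and Gpr17 were listed at 0 in all 3 of those KO libraries. Astrocyte markers summed to 1609 to 1802 CPM in resting NT and 949 to 1385 CPM in KO with vector, with 2 of 8 called lower. Microglia markers summed to 8.54 and 8.12 CPM in resting NT and to 4.85, 4.38 and 5.35 CPM in KO with vector, without overlap, and of 4 tested Csf1r fell (log2 fold change -1.31). Neural progenitor markers summed to 216 to 222 CPM and 62.9 to 175.5 CPM, with none of 10 called. The calls in all these marker lists stand against 5.90% of all genes called in this comparison (3.77% lower, 2.13% higher). An unadjusted p under 0.05 was reached by 4 of these 10, all lower, and by 4262 of all 20940 genes (edgeR). The part of these cell types in the result for the cell-cycle genes was not tested.

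With KCl, none of the 41 genes was called in KO with vector against NT, where 2.67% of all genes were. An unadjusted p under 0.05 was reached by 6 of the 41 and by 3466 of all 20940 genes (edgeR). DESeq2 called 1 of 35 members to which it gave an adjusted p, and 918 of 17211 genes in all. The largest log2 fold changes were in Top2a and Mki67. Mki67 was at 1.75 and 10.2 CPM in depolarized NT and at 0.72, 0.95 and 1.76 CPM in KO with vector, so that NT replicate 1 lay within the KO range (log2 fold change -2.40, SE 0.70, adjusted p = 0.0746, edgeR). Top2a was at 0.90 and 7.15 CPM against 0.51, 1.01 and 0.39 CPM, also with NT replicate 1 inside the KO range (-2.64, SE 0.77, adjusted p = 0.0756, edgeR). Mcm5 was at 1.61 and 2.67 CPM against 0.67, 1.13 and 0.78 CPM, without overlap (-1.31, adjusted p = 0.0773, edgeR).

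The median log2 fold change with KCl was 0.05 over the S-phase genes and -0.48 over the mitotic genes, and in 9 of the 41 genes all KO libraries were below both NT libraries, against 18.5% of all genes. The 9 include Bub1b, and the mitotic median includes Cdk1, Bub1 and Bub1b, which passed the filter only through NT. Without NT replicate 1, 2 genes were called and the mitotic median was -0.65. Without NT replicate 2, none was called and the mitotic median was 0.10. The next test asked whether the difference between KO with vector and NT itself changed with KCl. It called none of the 41 genes and none (0%) of all genes (DESeq2 0 members). An unadjusted p under 0.05 was reached by 6 members and by 1845 of all 20940 genes (edgeR). The resting and the depolarized comparison were therefore not shown to differ.

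Re-expression of Smarcc2 was compared in the same way. At rest, Mki67 was at 1.76 and 1.33 CPM with WT and at 2.20, 1.08 and 1.93 CPM with S586E, and Top2a at 1.00 and 1.85 CPM and at 1.21, 0.82 and 1.202 CPM. All of these were below both resting NT libraries. In 15 of the 41 genes, 2 S-phase and 13 mitotic, all 8 resting KO libraries were below both NT libraries, against 6.98% of all genes, and in none were all 8 above, against 4.92%. The 15 include Cdk1, which passed the filter only through NT. The comparisons below with NT share its 2 libraries per state, and those with vector share the vector libraries.

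KO with WT against KO with vector called none of the 41 genes at rest, where 0.0143% of all genes were called. An unadjusted p under 0.05 was reached by 7 members, 5 higher and 2 lower, and by 2317 of all 20940 genes (edgeR). DESeq2 called 0 of 6 members to which it gave an adjusted p. With KCl, WT against vector also called none, against 0.00955% of all genes (DESeq2 0). There 2 members and 836 of all genes had an unadjusted p under 0.05. KO with WT against NT called none at rest, against 0.105% of all genes. An unadjusted p under 0.05 was reached by 15 members, all lower, and by 1650 of all genes. DESeq2 called 1 of 31 members and 130 of 16414 genes. With KCl, WT against NT called none, against 0.201%, with 6 members and 2300 of all genes at an unadjusted p under 0.05. DESeq2 gave no member an adjusted p there. The median over the mitotic genes was 0.17 for WT against vector and -0.90 for WT against NT at rest. Both medians include Cdk1, Bub1 and Bub1b, which passed the filter only through NT.

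S586E against NT at rest called 8 of the 41 genes, all lower, where 2.78% of all genes were called (1.74% lower, 1.04% higher). Mki67 fell by 2.77, Top2a by 2.80, Mcm3 by 1.79, Rrm2 by 1.68, Tpx2 by 1.42, Cenpe by 1.03 and Mcm4 by 0.78 on the log2 scale (adjusted p from 0.0106 to 0.0470, edgeR). Aurkb, the Aurora B kinase gene, had 1 estimated count in 3 libraries against 30 in 2, a ratio of 0.0250 (95% counting interval 0.000613 to 0.150). The medians were -0.42 over the S-phase genes and -1.12 over the mitotic genes. This mitotic median includes Cdk1, Bub1 and Bub1b, which passed the filter only through NT. Without resting NT replicate 2 none was called, and without S586E replicates 1, 2 and 3 the numbers were 0, 1 and 2.

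Each mutant was also set beside WT and beside vector. At rest, S586E relative to WT called none of the 41 genes and 0% of all genes (DESeq2 0 of 9 members with an adjusted p). An unadjusted p under 0.05 was reached by 4 members, all lower, and by 2695 of all 20940 genes (edgeR). S586A against WT with KCl called none of the 41 and 0% of all genes (DESeq2 0 of 38). There 1 member and 1824 of all genes had an unadjusted p under 0.05. Against vector, S586E called none (0.0191% of all genes) and S586A called none (0.00955%). An unadjusted p under 0.05 was reached by 1 member and 1559 of all genes for S586E, and by 4 members and 2730 of all genes for S586A. DESeq2 also called 0 in both, but gave an adjusted p to only 3 and 2 of the 41 genes. S586A against NT with KCl called none (0.430%, DESeq2 0 of 16 with an adjusted p). There 7 members and 2472 of all genes had an unadjusted p under 0.05. The mitotic sums were 38.5, 39.0 and 48.0 CPM with S586E, 44.5 and 51.9 CPM with WT and 39.5 to 48.1 CPM with vector at rest, overlapping ranges. With KCl they were 48.5 and 50.7 CPM with S586A, 50.2 to 53.9 CPM with WT and 44.2 to 48.4 CPM with vector.

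**Figure D4:**
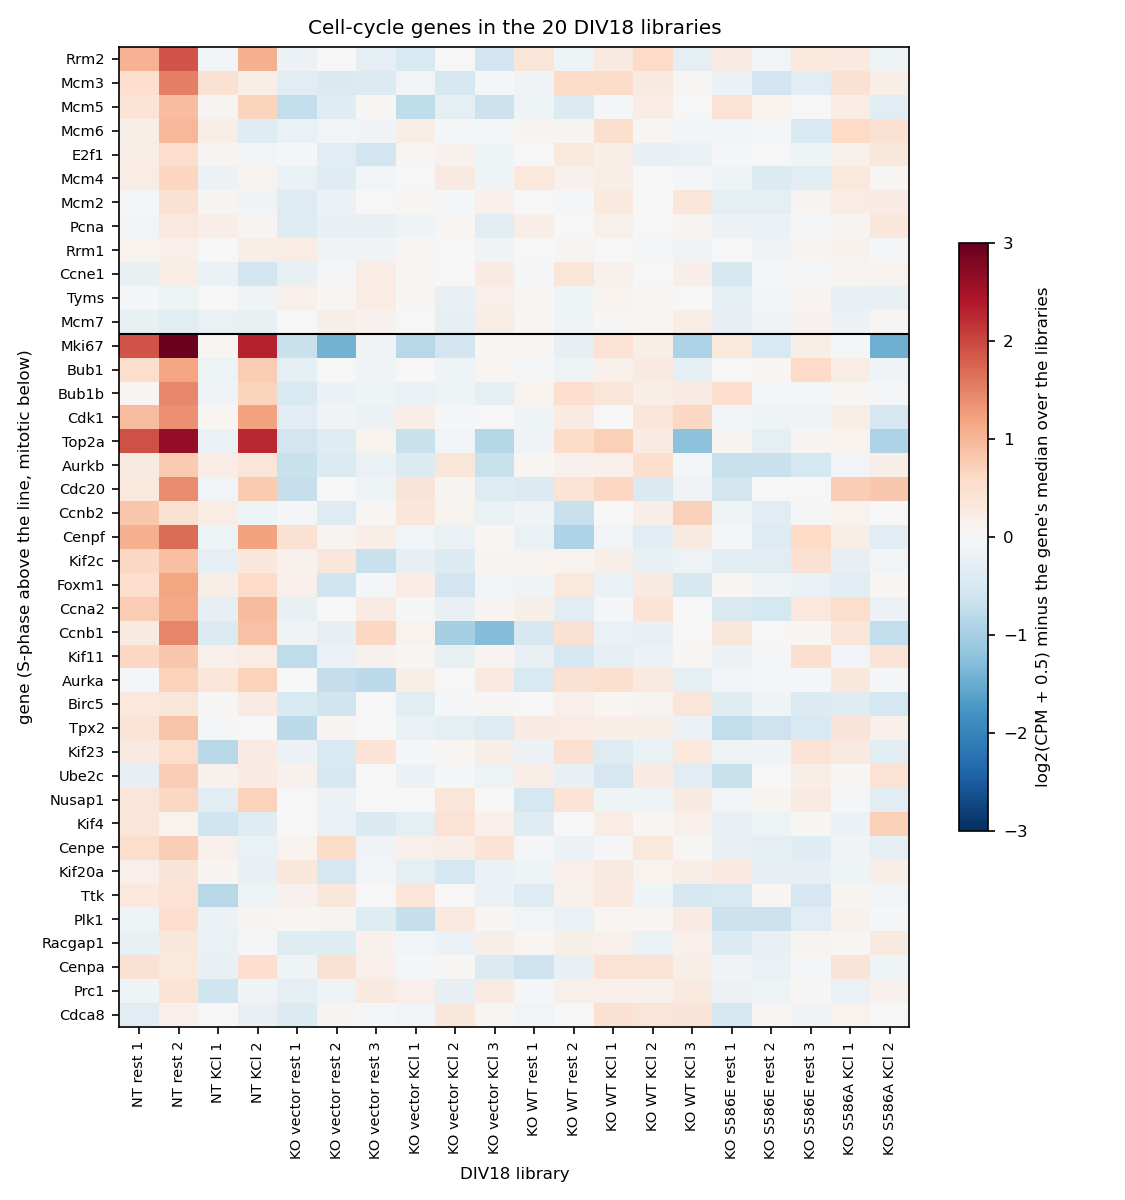
Log2(CPM + 0.5) of each of the 41 genes minus the gene's median over the 20 DIV18 libraries, with S-phase genes above the line and mitotic genes below. Both resting NT libraries and depolarized NT replicate 2 stand out as high for mitotic genes, with summed levels of 68.6, 107 and 73.2 CPM against 38.5 to 53.9 CPM in the KO libraries.

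The response to 30 min of depolarization was first read at DIV7. In these wild-type neurons 4 of the 41 genes were called, 3 mitotic genes higher and 1 S-phase gene lower, where 17.0% of all 19822 genes tested were called (7.34% higher, 9.67% lower). The share among the 41 was thus below that of all genes. The medians were -0.13 over the S-phase genes and 0.02 over the mitotic genes, against -0.00 over all genes. In 10 of the 41 genes both KCl libraries were above both resting ones, against 28.5% of all genes, and in 9 both were below, against 30.7%.

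Ccnb2, the cyclin B2 gene, was at 0.88 and 1.13 CPM at rest and at 2.26 and 3.06 CPM with KCl, a log2 fold change of 1.41 (SE 0.27, adjusted p = 0.0146, edgeR). Ube2c was at 1.54 and 1.17 CPM at rest and at 2.94 and 3.10 CPM with KCl, a log2 fold change of 1.14 (SE 0.22, adjusted p = 0.0153, edgeR). Prc1, which bundles the microtubules of the central spindle, was at 10.6 and 9.39 CPM at rest and at 12.8 and 14.1 CPM with KCl (0.42, SE 0.11, adjusted p = 0.0421, edgeR). None of these groups overlapped. Mcm7 was at 30.3 and 29.5 CPM at rest and at 23.3 and 22.9 CPM with KCl, and fell by 0.37 on the log2 scale (SE 0.07, adjusted p = 0.0139, edgeR).

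The values of Ccnb2 rest on 53 and 151 estimated counts and those of Ube2c on 73 and 172. Ccnb2 has an annotated pseudogene with more counts than the gene itself (339% of its counts over all libraries), and Ube2c, Prc1 and Mcm7 each overlap another gene, so reads may have been divided between them. The Prc1 change was 0.25 with effective-length offsets (adjusted p = 0.354, edgeR). Without resting replicate 1 or 2 only 1 of the 41 genes was called, and without KCl replicates 1 and 2 the numbers were 4 and 3. Cenpa, the centromeric histone gene, had a log2 fold change of 0.68 (adjusted p = 0.129) and Mcm2 one of -0.43 (adjusted p = 0.0767, edgeR). Mki67, Top2a and Rrm2 overlapped between the states, with Mki67 at 5.09 and 4.27 CPM at rest and 4.97 and 4.01 CPM with KCl.

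**Figure D5:**
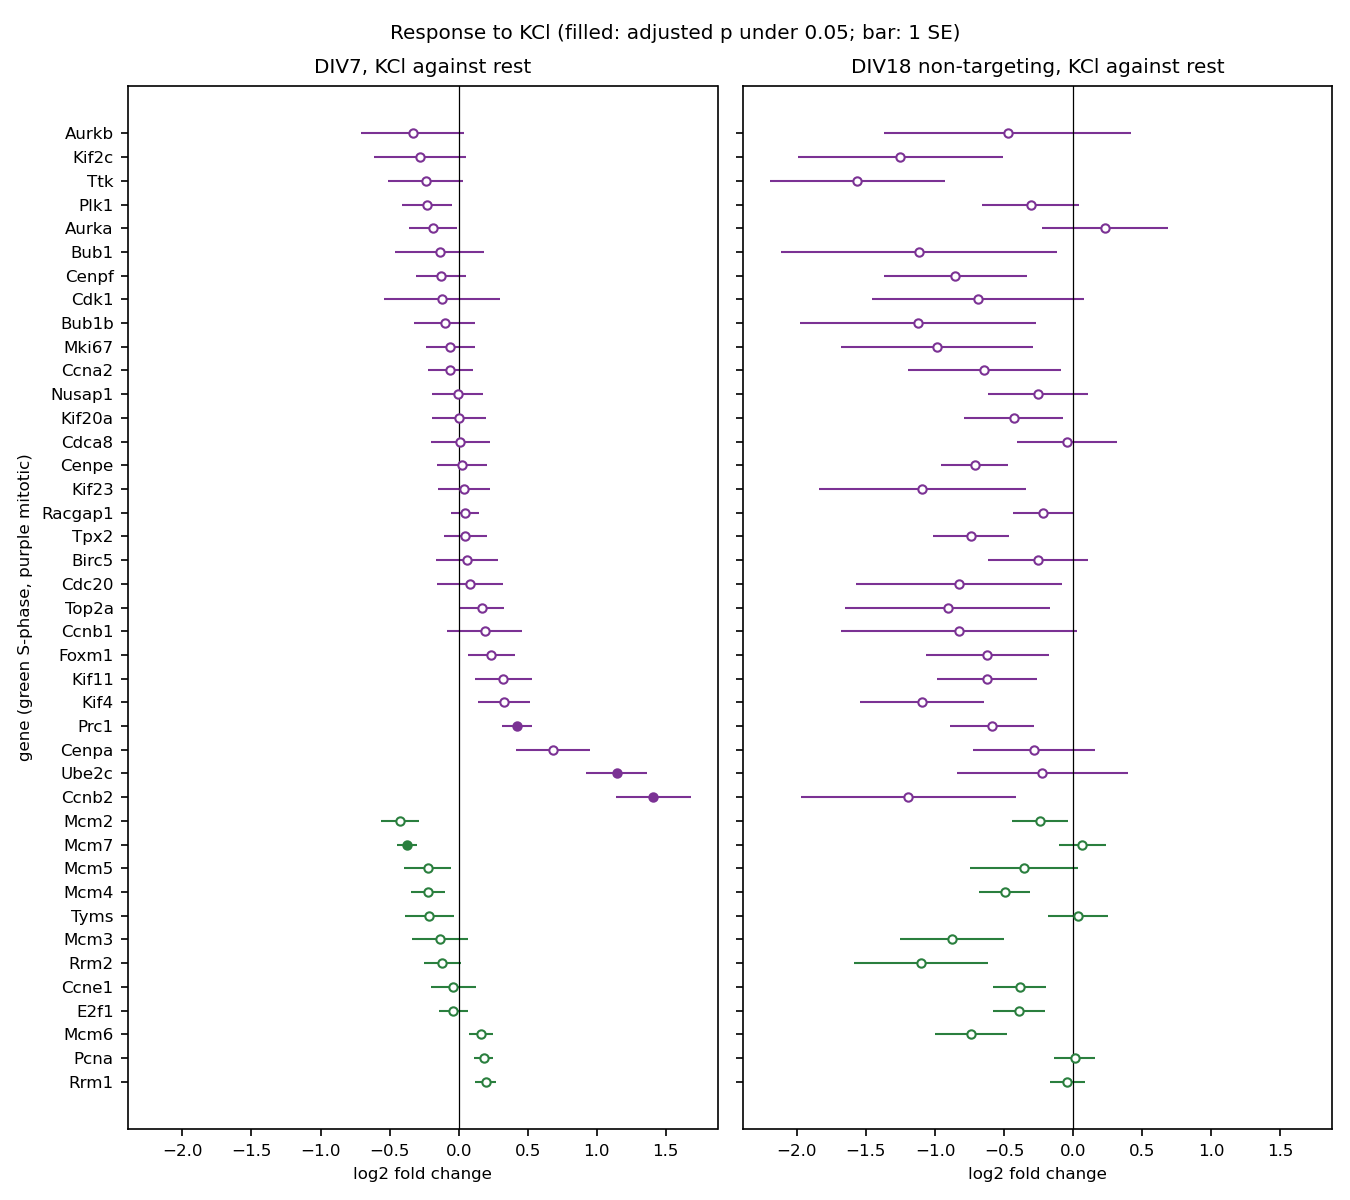
Log2 fold change with its standard error of each of the 41 genes with KCl against rest, in wild-type neurons at DIV7 and in NT neurons at DIV18; filled points have an adjusted p under 0.05. At DIV7 Ccnb2, Ube2c and Prc1 are higher and Mcm7 is lower; at DIV18 no point is filled.

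Some cell-cycle genes outside the 41 also rose with KCl at DIV7. Of 30 other S-phase genes 2 rose and none fell: Cdc6, which loads the helicase at origins, with a log2 fold change of 1.69 (adjusted p = 0.00716, edgeR) and Orc1, of the origin recognition complex, with 1.01. Of 38 other mitotic genes tested 3 rose (Ncapg by 1.81, Fam83d by 1.25 and Aspm by 1.197) and 2 fell (Kif22 by 1.04 and Ccnf by 0.79). Of 26 G1 genes Cdkn1b, the p27 inhibitor gene, rose by 0.75 and Cdk4 fell by 0.21. These shares, 2 of 30, 5 of 38 and 2 of 26, were below the 17.0% of all genes. With effective-length offsets Aspm had 0.70 (adjusted p = 0.541) and Kif22 -0.59 (adjusted p = 0.306, edgeR).

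At DIV18 no gene of the 41 was called for KCl against rest in NT, KO with vector or KO with WT. In NT the background was 0.00955% of all genes (DESeq2 0 of 35 members with an adjusted p). An unadjusted p under 0.05 was reached by 9 members, all lower, and by 906 of all 20940 genes (edgeR). The medians were -0.37 over the S-phase genes and -0.69 over the mitotic genes, and in 13 genes, 3 S-phase and 10 mitotic, both KCl libraries were below both resting ones, against 16.8% of all genes; in none were both above, against 16.7%. In KO with vector none was called (0.0716% of all genes, DESeq2 0 of 30), with medians of 0.13 and 0.17. There 2 members and 2167 of all genes had an unadjusted p under 0.05. In KO with WT none was called (0.0430%, DESeq2 0 of 38), with medians of 0.07 and 0.14, and 2 members and 1040 of all genes had an unadjusted p under 0.05. Few genes of any kind were called for KCl at DIV18, against 17.0% at DIV7. Replicates differed more in the DIV18 fit, with a common biological coefficient of variation of 14.6% against 6.44% (edgeR). The library kinds also differ, so these shares do not compare the size of the response.

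DIV7 wild-type neurons were also set against resting NT neurons at DIV18. Age, poly(A) against rRNA-depleted libraries, 0.1% DMSO (listed at DIV7 only) and delivery of a guide RNA differ together here and cannot be told apart. Log2 fold changes come from the fit of all 24 libraries, whereas the CPM printed were scaled apart for DIV7 and DIV18. The ratio of the printed CPM therefore differs somewhat from the fold change. Of the 41 genes 11 were called, 5 higher and 6 lower at DIV7, where 52.7% of all 22459 genes were called (25.9% higher, 26.8% lower), so fewer of the 41 were called than of all genes. The medians were 0.07 over the S-phase genes and 0.10 over the mitotic genes, against -0.01 over all genes. These directions hold for TMM-scaled counts: in the authors' TPM, which are shares of each library's own transcripts, the mitotic sum was 93.4 and 89.6 TPM at DIV7 against 25.7 and 39.6 TPM in NT.

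The largest difference was in Ccne1, at 3.96 and 3.58 CPM at DIV7 and 17.0 and 23.4 CPM in NT at DIV18, a log2 fold change of -2.61 (SE 0.20, adjusted p = 7.00e-10, edgeR). Cenpe, Mcm3, Kif11, Mcm4 and E2f1 were also lower at DIV7, by 0.94 to 0.53 on the log2 scale. Without NT replicate 2 the calls of Mcm3, Kif11, Mcm4 and E2f1 were lost, and the log2 fold change of Mcm3 was then -0.21 (adjusted p = 0.701, edgeR). In TPM the direction was the opposite for 4 of these genes, with means of 2.01 at DIV7 against 1.37 in NT for Mcm3, 4.80 against 3.31 for Mcm4, 7.90 against 4.84 for E2f1 and 0.88 against 0.63 for Kif11. Cenpe (0.81 against 1.16 TPM) and Ccne1 (3.70 against 11.7 TPM) were lower at DIV7 on both scales. Mcm7 was higher at DIV7, at 30.3 and 29.5 CPM against 10.5 and 9.59 CPM (1.37, adjusted p = 1.38e-07, edgeR). So was Prc1, at 10.6 and 9.39 CPM against 2.51 and 3.90 CPM (1.44, adjusted p = 5.76e-05, edgeR).

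Kif23, the centralspindlin motor, was at 3.96 and 3.02 CPM at DIV7 against 0.76 and 1.01 CPM (1.78, adjusted p = 0.0121, edgeR; 0.69 with effective-length offsets, adjusted p = 0.391). Cdca8, which encodes the chromosomal passenger protein borealin, was at 5.16 and 3.67 CPM against 0.98 and 1.61 CPM (1.58, adjusted p = 0.000269, edgeR). Pcna was at 39.3 and 37.1 CPM against 19.96 and 26.5 CPM (0.52, adjusted p = 0.00280, edgeR). Mki67 went the other way without passing the threshold, at 5.09 and 4.27 CPM against 7.52 and 16.1 CPM (-1.53, adjusted p = 0.0549, edgeR).

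The estimated counts of several genes lay partly on transcripts annotated as not coding for protein. Of the Kif23 counts 44.8% were on protein-coding transcripts at DIV7, 9.5% over the 4 NT libraries and 20.3% over the 16 with KO. For Ccnb1 the shares were 61.2%, 65.9% and 26.2%, and for Top2a 78.5%, 87.7% and 66.1%. Mki67, Ccnb2 and Ube2c had all counts on protein-coding transcripts. Over all S-phase genes the share was 91.4% to 96.9% per library, and over all mitotic genes 83.4% to 93.0%. How kallisto divided reads among transcripts of a gene sets these shares, and gene sums do not depend on it except where another gene shares the sequence.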

How the data were processed

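Estimated counts and TPM per transcript are the authors' deposited kallisto output, per the file headers, and FastQC, cutadapt and kallisto are named in the submitters' processing notes. The kallisto version, index and genome build are not given in the sources used here. Of 142552 transcripts in each table, 141429 (99.2%) were matched to GENCODE M21 (GRCm38), and the rest held at most 0.467% of a library's counts. Deposited expected counts were summed per gene and rounded, and deposited TPM were summed per gene for levels between genes. edgeR 4.0.16 (R 4.3.3, limma 3.58.1) was run with TMM scaling, filterByExpr by group and the quasi-likelihood F test, two-sided, Benjamini-Hochberg over all genes tested, with calls at an adjusted p under 0.05. DIV7 (4 libraries, 2 residual degrees of freedom) and DIV18 (20 libraries, 12) were fitted apart, and all 24 libraries together (14) for DIV7 against DIV18. CPM were computed from the counts with TMM-scaled library sizes, those of the DIV7 fit at DIV7 and those of the DIV18 fit at DIV18. Depth limits the precision of the mitotic genes, several of which had under 10 counts in KO libraries, and counting intervals (95%) cover counting error only.

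There were 18 comparisons, 4 of them (WT, S586E and S586A against NT) added after the data were seen. Alternatives were DESeq2 1.42.0 (members without an adjusted p stay uncounted), median-of-ratios size factors, no filter, the compared groups alone, effective-length offsets, a replicate block, each library left out in turn and, added later, a filter on the 16 KO libraries. The members, lists and tests were chosen with earlier results of these data known. Genes named were a set of 10 members, every member called in a comparison, the extremes of each class and the called genes of the other lists. Same-numbered libraries deviated together (each correlation over 0.1) in WT against vector with KCl (0.106, 0.114 and 0.236) and S586E against vector at rest (0.293, 0.103 and 0.291). The same held for WT against NT at rest (0.104, a single value as both groups hold 2 libraries) and with KCl (0.111 and 0.12). In these comparisons the block changed no call. Of the 41 genes 17 overlap another gene, 14 of them on the opposite strand, and the labels used here do not state whether strand was used. The edgeR step was tested on simulated data. Promoter letters were searched in RefSeq windows of 250 bases before the start.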

Additional observations from a re-analysis of the deposited data

How the results depend on the processing

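Of 691 single-gene values under an alternative, 0 reversed; the numbers called moved most with single libraries. The number of the 41 genes called in KO with vector against NT at rest, 12 as reported, was 7 with effective-length offsets and 3 when those groups were fitted alone, and 0 to 11 with 1 library left out. It was 12 with median-of-ratios size factors, 15 without the filter, 10 with DESeq2, 10 with the filter on the KO libraries and 11 with the replicate block. For KO with vector against NT with KCl (0 as reported) it was 2 without the filter, 1 with DESeq2 and 0 to 2 with 1 library left out. For S586E against NT at rest (8) it was 13 without the filter, 3 with effective-length offsets and 0 to 8 with 1 library left out. KCl against rest at DIV7 (4) gave 2 with DESeq2, 6 with the replicate block and 1 to 4 with 1 library left out, and DIV7 against NT (11) gave 8 to 10 with 1 library left out. Without the filter, S586E against WT (0) gave 2, WT against NT (0) gave 4 at rest and 2 with KCl, and S586A against NT (0) gave 2, while DESeq2 gave 1 for WT against NT at rest. The causes were not tested. In the other comparisons with none called, the replicate block and each library left out also gave 0; the block gave 12 for DIV7 against NT and 8 for S586E against NT. Class medians were counted for median-of-ratios size factors, no filter, effective-length offsets and the filter on the KO libraries only. Of these 132 medians 125 moved by less than 1 SD, taken between libraries of a group on the mean log2 CPM of the class. Medians with a library left out are not among them, and some of those given above moved further. Where 1 of 2 libraries was left out, the lone library was assumed to vary like the other groups. Cdk1, Bub1 and Bub1b had 6, 3 and 4 counts in all in resting KO with vector, so depth limits what a difference in these genes can show.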

Other observations

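The genes whose pattern over the 20 DIV18 libraries was most like that of each class were ranked by Spearman correlation with the mean log2 level of the class, among 15047 genes. The libraries share groups and scaling, so these values describe likeness only. Nearest to the S-phase genes were Mknk2 (rho 0.877), Gng5 (0.874), Rab31 (0.871), Mpp2 (0.860) and Mpst (0.859). Nearest to the mitotic genes were Xaf1 (rho 0.845), Rexo5 (0.838), Zyx (0.836), Elf1 (0.835) and Rpp30 (0.812). Of 4 oligodendrocyte precursor markers ranked, Pdgfra (rho 0.791 with the S-phase and 0.636 with the mitotic genes) and Cspg4 (0.666 and 0.674) were nearer than Olig1 (0.474 and 0.293) and Olig2 (0.316 and 0.278). Within the 16 KO libraries alone, rho with the S-phase genes was 0.618 for Pdgfra, 0.415 for Cspg4, 0.194 for Olig1 and -0.035 for Olig2. With the mitotic genes it was 0.424, 0.479, -0.147 and -0.126 in the same order.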
